A study of Homo sapiens with 16 samples.

Results

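The centromeres of suprachromosomal family 2 that are not on acrocentric chromosomes lie on chromosomes 2, 4, 8, 9, 18 and 20, and the peaks described here were those of 9 anti-quadruplex peak lists whose midpoint fell in 1 window per chromosome. In hg38 the windows ran from 91.8 to 96.0 Mb on chromosome 2, from 48.2 to 51.8 Mb on chromosome 4, from 43.2 to 47.2 Mb on chromosome 8, from 42.2 to 45.5 Mb on chromosome 9, from 15.4 to 21.5 Mb on chromosome 18 and from 25.7 to 30.4 Mb on chromosome 20. They held 3717 of the 40118 peaks of the 9 lists, on 25.0 Mb of known bases, which is 0.857% of the known bases of chromosomes 1 to 22 and X. The rule used position only.

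All DNA came from HEK293T, a human embryonic kidney line, and every immunoprecipitation used 1H6, an antibody against G-quadruplexes. G4 DNA-IPnat and G4 DNA-IPdenat were precipitated from purified genomic DNA of untransduced cells, either as isolated or after heat denaturation and snap chilling, and G4-ChIP came from crosslinked chromatin of untransduced cells. In AbC G4-ChIP the antibody was given to fixed and permeabilised cells and crosslinked to its targets before shearing. This was done in stable lines with a non-targeting shRNA (CT) or an shRNA against CGGBP1 (KD), a protein that binds CGG repeats, in 3 pairs. The pair nuc had nothing added, the pair ut had a folded and antibody-bound control DNA put into the lysate, and in the pair tr the cells had been transfected with that control DNA. Each list came from 1 sequencing library pooled from 4 replicates, so no list carries an error between replicates. CTnuc and KDnuc were read on an Ion Torrent sequencer against 1 shared input and the other 7 lists on a MinION, with a separate input for each list of the ut and tr pairs. Sequencer and pair cannot be told apart.

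A G-quadruplex is a four-stranded fold in which guanines pair in stacked planes, and its canonical signature is 4 runs of at least 3 G with short loops between them. Alpha satellite is the tandem repeat on which human kinetochores assemble. Its unit is about 171 bases long, and in families 1 and 2 units of an A type and of a B type alternate, with the B type carrying the CENP-B box, the binding site of the centromere protein CENP-B. The arrays of hg38 are computed models of each array's content, so a position inside one is not a surveyed order. Beside the arrays lie other satellites, among them the pentamer repeat of human satellites 2 and 3, and blocks duplicated between chromosomes.

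The sequences below show the kinds of DNA under the peaks. They are the plus strand of hg38, read 5′ to 3′. In the first 4, all 171 bases long, capitals mark the CENP-B box, which was searched as TTCG, any 4 bases, A, any 2 bases and CGGG, on both strands. They come from the region that most lists covered on chromosomes 2, 9 and 18 and, on chromosome 4, from the peak with the highest fold in KDut. Their positions are chr2:92618136-92618306, chr4:51711845-51712015, chr9:43620959-43621129 and chr18:20921001-20921171.
Chromosome 2, box unit: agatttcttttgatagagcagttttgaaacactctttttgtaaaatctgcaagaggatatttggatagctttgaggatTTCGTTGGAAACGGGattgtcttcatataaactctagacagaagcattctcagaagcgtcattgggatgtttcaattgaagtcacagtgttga
Chromosome 4, box unit: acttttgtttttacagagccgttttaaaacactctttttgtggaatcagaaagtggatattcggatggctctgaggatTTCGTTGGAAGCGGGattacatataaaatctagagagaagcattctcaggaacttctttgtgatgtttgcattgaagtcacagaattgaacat
Chromosome 9, box unit: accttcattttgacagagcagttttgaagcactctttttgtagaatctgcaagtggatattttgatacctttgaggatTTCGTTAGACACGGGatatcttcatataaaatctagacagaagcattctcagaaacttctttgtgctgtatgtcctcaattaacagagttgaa
Chromosome 18, box unit: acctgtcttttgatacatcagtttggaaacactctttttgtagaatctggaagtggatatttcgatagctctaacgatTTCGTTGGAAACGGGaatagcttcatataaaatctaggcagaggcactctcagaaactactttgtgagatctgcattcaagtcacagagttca
The 4 units were 77.7% to 82.6% identical to one another over their alignments. The next stretch, chr20:28839104-28839274, is from a region that all 9 lists covered and holds no box. It was 70.9% to 75.1% identical to the 4 box units.
Chromosome 20, unit without a box: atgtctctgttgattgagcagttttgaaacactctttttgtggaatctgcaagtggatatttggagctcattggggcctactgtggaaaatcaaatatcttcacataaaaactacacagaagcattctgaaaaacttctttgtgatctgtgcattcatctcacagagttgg

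Chromosome 4 also gave peaks over sequence other than alpha satellite, of which 5 stretches are shown. The first 4 lie before its array and the last lies at the array's start. Capitals mark runs of at least 3 G or C in the first 3, and the pentamer ATTCC in the fourth. They are the stretch richest in such runs of the longest region that all 9 lists shared (chr4:49513158-49513357), a 147-base repeat unit (chr4:49298010-49298156) and a canonical signature (chr4:49296747-49296828) from 1 CTnuc peak, the start of the longest region found in all 3 KD lists and in no CT list (chr4:49122712-49122811), and 3 copies of a 42-base repeat under the peak with the highest fold of all (chr4:49709331-49709456).
Shared region: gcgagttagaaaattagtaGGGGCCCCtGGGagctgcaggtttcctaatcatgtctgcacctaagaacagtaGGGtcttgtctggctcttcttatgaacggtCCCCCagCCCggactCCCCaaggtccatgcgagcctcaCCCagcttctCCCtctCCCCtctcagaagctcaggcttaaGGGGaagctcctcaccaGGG
147-base repeat: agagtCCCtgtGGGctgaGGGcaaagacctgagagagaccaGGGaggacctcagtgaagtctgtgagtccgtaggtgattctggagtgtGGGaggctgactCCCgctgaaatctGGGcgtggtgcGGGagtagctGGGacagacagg
Canonical signature: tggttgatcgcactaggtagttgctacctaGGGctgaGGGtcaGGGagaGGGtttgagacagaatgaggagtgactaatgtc
Pentamer: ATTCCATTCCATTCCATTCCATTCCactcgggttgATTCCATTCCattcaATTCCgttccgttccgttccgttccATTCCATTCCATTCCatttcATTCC
42-base repeat: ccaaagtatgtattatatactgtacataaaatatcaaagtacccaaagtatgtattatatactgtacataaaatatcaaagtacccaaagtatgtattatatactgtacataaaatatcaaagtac

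The label of the windows was checked against the reference. Box-rich arrays, the run of 100-kb bins with at least 100 boxes each, made up 15.5 Mb and held 39975 of the 40676 boxes of the windows. They had 2.46 to 2.80 boxes per kb on each of the 6 chromosomes, and bases matched those 1 unit further on at 48.9% to 59.6% of positions. The match 2 units on was lower, 41.9% to 52.2%, so an alternation of 2 unit types did not show in this measure, and the units were not typed. At longer distances the best match lay at 680 bases on chromosomes 2, 9 and 20, at 71.2% on chromosome 9, and at 2035 bases on chromosome 18. The alpha satellite is thus present in every window, and the family name is taken from the chromosomes.

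Peaks were far denser in these windows than over the genome in every list. CTut had 626 of its 3496 peaks there, 17.9% (95% exact Clopper-Pearson interval 16.6 to 19.2), KDut 315 of 2927 (10.8%), CTtr 308 of 2367 (13.0%) and KDtr 243 of 2389 (10.2%). CTnuc had 461 of 3796 (12.1%) and KDnuc 899 of 7753 (11.6%). Among the lists from untransduced cells the share was 19.03% for G4 DNA-IPnat (43 of 226), 4.83% for G4 DNA-IPdenat (758 of 15709) and 4.40% for G4-ChIP (64 of 1455). Per Mb of known bases the windows held between 5.13 (G4-ChIP) and 22.2 (G4 DNA-IPnat) times the peaks of the whole genome. The intervals cover counting error only, and the depth behind a peak is not in the lists.

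Fold enrichment, as deposited, was somewhat higher inside the windows than outside them. The median inside was 4.52 in CTtr at the lowest and 6.02 in G4 DNA-IPnat at the highest, and in each of the 9 lists it was above the median of that list's other peaks, which ran from 3.67 in KDut to 5.86 in G4 DNA-IPnat. The share of peaks with a −log10 q of at least 4 was also higher inside in each list, for example 89.3% against 62.4% in CTut and 53.1% against 15.0% in G4-ChIP. Peaks covered from 0.499% of the known bases of the windows in G4 DNA-IPnat to 6.51% in CTut. The AbC lists and the denatured DNA were called with no local lambda, so their fold and q-value are set against a fixed background. They are not set against the input at the same site. The part of repeat copy number in these values and in the peak density was not tested.

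The 6 chromosomes were far from equal. Chromosome 4 held 1328 of the 3717 peaks (35.7%) and had the most peaks in 8 of the 9 lists. Its share was 69.8% in G4 DNA-IPnat (30 of 43) and 65.6% in G4-ChIP (42 of 64), and it was lowest in CTut at 22.2% (139 of 626). Chromosome 20 followed with 787 peaks and was first in CTut, with 147. Chromosome 9 had 476, chromosome 18 had 444, chromosome 2 had 418 and chromosome 8 had 264.

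**Figure D1:**
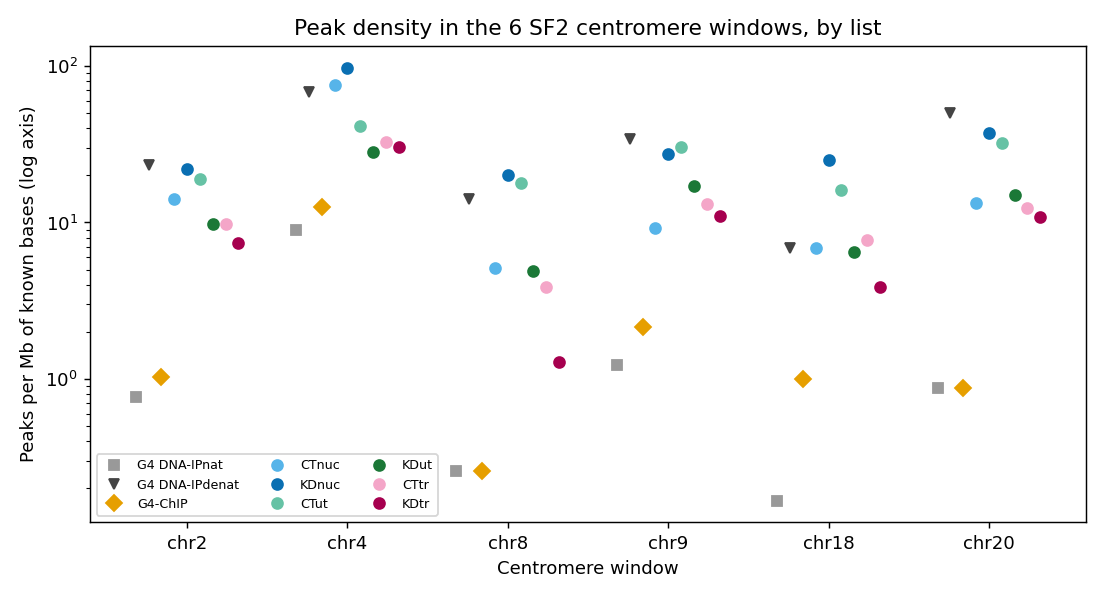
Peaks per Mb of known bases (log axis) in each of the 6 centromere windows, 1 point per list with no replicates. Chromosome 4 lies above the other chromosomes in every list, from 8.96 peaks per Mb in G4 DNA-IPnat to 97.6 in KDnuc, and chromosome 18 has 0.17 in G4 DNA-IPnat, the lowest value.

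Covered bases kept chromosome 4 in front. Peaks covered 16.8% of its window in G4 DNA-IPdenat, 13.9% in CTut and 13.6% in KDnuc, against 0.67%, 2.78% and 2.28% on chromosome 18, which has the longest array of the 6 at 5.3 Mb. G4 DNA-IPnat covered 3.16% of the chromosome 4 window and no more than 0.18% of any other. Of its 105893 bases on chromosome 4, 79491 lay in a block of pentamer and other sequence before the array, which is described below. On chromosome 20, G4 DNA-IPdenat (11.8%) and CTut (9.95%) stood above the remaining lists, of which the highest was KDnuc at 4.89%.

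Inside the arrays the peaks of several chromosomes were crowded to 1 side. On chromosome 2, 294 of the 377 array peaks (77.98%) lay in the part nearest the array's start when the array was cut into 3 equal parts, and 25 (6.63%) lay in the part nearest its end. On chromosome 9 the same parts held 310 and 25 of 447 peaks, and on both chromosomes the part at the start held the most in all 9 lists. On chromosome 4 the 3 parts held 385, 353 and 317 peaks. In each of the 6 arrays the part at the end held the fewest peaks, from 5.59% on chromosome 9 to 30.05% on chromosome 4.

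How often the reference repeats itself was measured in the same parts, and its part in the crowding was not tested. On chromosome 2, 24.1% of the 100-base words in the part at the start occurred once in the 6 windows, both strands counted, against 21.1% in the part at the end, and on chromosome 9 the values were 14.1% and 16.1%. Over the 6 arrays 11.6% of such words occurred once, and the median word had 192 copies. In the bases under array peaks 3.05% (G4 DNA-IPnat) to 10.7% (G4 DNA-IPdenat) of the words occurred once. The authors kept only reads that aligned to 1 place.

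Most peaks sat on box-bearing alpha satellite. Of the 3717 peaks, 3029 (81.5%) had their midpoint in an array and 3055 (82.2%) held at least 1 CENP-B box. The share in the arrays ran from 62.8% in G4 DNA-IPnat (27 of 43) to 85.5% in CTut (535 of 626). The arrays make up 59.8% of the windows' length. Under the array peaks there were 2.34 (G4 DNA-IPnat) to 2.52 (CTut) boxes per kb, which was 0.933 to 0.976 times the density of the arrays of the same chromosomes. The box was therefore in nearly all array peaks, 98.0% of them or more in each list, at about the density that the arrays have themselves.

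The canonical signature was missing from all 3029 array peaks. The arrays hold 10 canonical signatures in 15.5 Mb, whereas the windows as a whole hold 1294. Over all window peaks 98 (2.64%) had a signature, and in each list this share was lower than among that list's peaks elsewhere, at 3.04% against 5.70% in CTnuc, 2.72% against 10.2% in CTut and 9.30% against 15.3% in G4 DNA-IPnat. In G4-ChIP it was 0 of 64 against 9.13%. Window peaks had a shorter median length than the whole list in every list but G4 DNA-IPnat. In CTtr it was 1016 against 1652 bases, and in KDnuc 913 against 920. The part of peak length in these shares was not tested. Median GC content lay between 37.8% and 38.7% in the windows and between 35.0% and 39.6% elsewhere.

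G runs were counted as GGG or CCC triplets in overlapping steps. The window peaks had a median of 8.11 (G4 DNA-IPnat) to 11.1 (CTut) triplets per kb. The peaks elsewhere had 7.31 (G4 DNA-IPnat) to 17.9 (G4 DNA-IPdenat), and the windows were lower in 8 lists, at 10.1 against 17.9 in G4 DNA-IPdenat, and higher in G4 DNA-IPnat. The arrays themselves differed in this, with 6.73 per kb on chromosome 4 and 7.51 on chromosome 9, against 10.7 on chromosome 8 and 13.5 to 13.7 on chromosomes 2, 18 and 20. The array with the fewest triplets per kb was thus the one with the most peaks. With 6 chromosomes that also differ in array length and repeat copy number, this is a description only.

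The remaining 688 peaks fell into 3 kinds of sequence. Alpha periodicity outside the box arrays accounted for 181 peaks, the pentamer class for 86 and other sequence for 421. The pentamer peaks had the highest median fold of the 4 classes in 8 of the 9 lists, and in G4 DNA-IPnat alpha periodicity outside the array was higher on the strength of 1 peak. Their median was 12.8 in G4 DNA-IPdenat against 5.44 for its array peaks, 10.0 in KDtr against 5.26, 9.94 in KDut against 4.88 and 7.23 in G4-ChIP against 5.14. In CTnuc the difference was small, 6.09 against 5.62. Chromosome 4 had 73 of the 86 pentamer peaks, with a median of 8.36, and chromosome 20 had 5 with a median of 6.05. On chromosome 9 the median was 4.00 for the 8 peaks of this class and 5.11 for the array peaks. Those 8 peaks had a median GC content of 35.4%, against 41.0% for the class on chromosome 4. In G4 DNA-IPdenat they repeated best at 26 or 49 bases. They passed the pentamer threshold but may be another repeat, so they give no order for the pentamer satellite. The other class held 94 of the 98 peaks with a canonical signature.

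**Figure D2:**
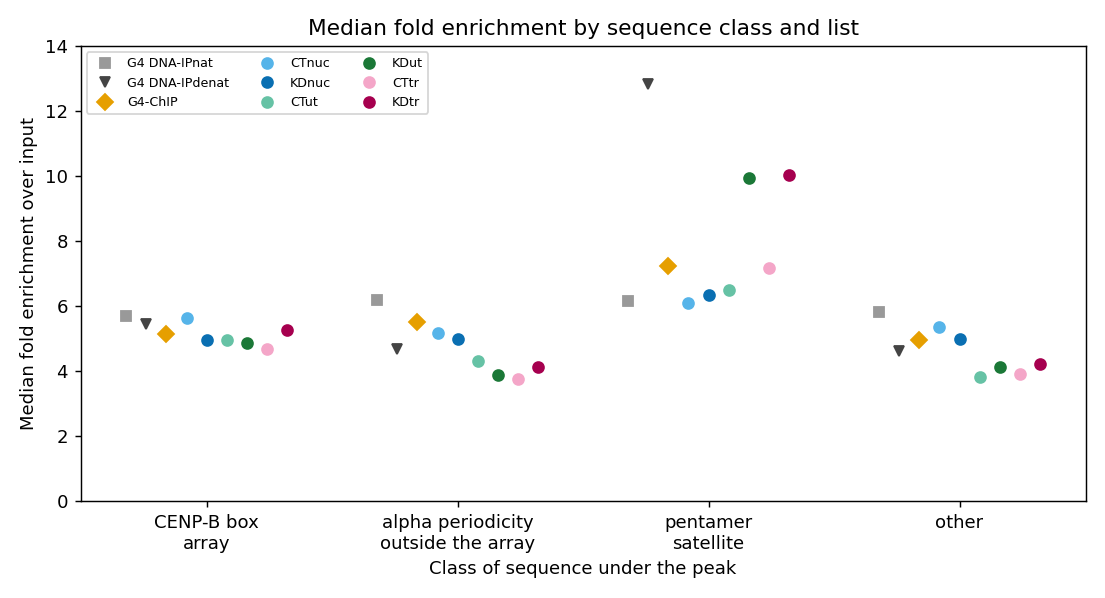
Median fold enrichment, as deposited (linear axis from 0), of the peaks in each class of sequence, 1 point per list. No error bars are drawn because each list is 1 pooled library. The axis reads over input, but the AbC lists and the denatured DNA were called with no local lambda. Pentamer peaks reach 12.8 in G4 DNA-IPdenat and 10.0 in KDtr, and array peaks lie between 4.67 and 5.70 in all lists.

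Before its array, chromosome 4 had a dense block of peaks from 49091089 to 49658169 that held 268 peaks of the 9 lists. CTnuc had 59 and KDnuc 68 there, and the 4 MinION AbC lists had 21 (KDut) to 26 (CTut), while G4 DNA-IPdenat had 24, G4 DNA-IPnat 12 and G4-ChIP 11. The block opens with the pentamer satellite, where MinION lists called peaks up to 37088 bases long in KDtr and 36087 in KDut. Pentamer sequence also lies near its end, under a G4 DNA-IPnat peak of 26280 bases at chr4:49631597-49657876. Each MinION list had 5 to 11 pentamer peaks on chromosome 4. The longest pentamer peak of the nuc pair was 5214 bases, in KDnuc.

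Beyond the first pentamer stretch the block held G-rich repeats. The printed 147-base repeat, whose letters matched those of the next unit at 77.6% of positions, was the best repeat length in 50 of the 200 other-class peaks of chromosome 4. These 50 had a median GC content of 50.6%, a median of 50.6 triplets per kb and a canonical signature in 39, against a median GC content of 41.99%, 26.1 triplets per kb and a signature in 30 of the remaining 150. Their median fold was 7.55, with a range from 4.41 to 16.3, and they came from 8 lists, all but G4-ChIP. The highest was the CTnuc peak at chr4:49295538-49298320, with a fold of 16.3. Of their 100-base words a median of 39.3% occurred once in the windows, so the split of reads between near-identical copies is uncertain. By the paper's mean lengths, reads of the nuc pair were longer than these words, and those of G4-ChIP and the DNA-IP lists longer still. The words therefore do not measure how uniquely a read aligns.

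The region covered by all 9 lists on chromosome 4 with the greatest length was chr4:49510760-49513616, in the same block. Its 2857 bases were 46.7% GC and held 107 triplets. Here and below, the fold of a list at a region is that of the whole peak that covers it, which can reach beyond the region. In the lists from untransduced cells its fold was 4.93 for G4-ChIP, 5.85 for G4 DNA-IPdenat and 6.69 for G4 DNA-IPnat. It was 14.2 in CTnuc and 13.4 in KDnuc, 5.82 in CTut and 9.71 in KDut, and 7.78 in CTtr and 10.3 in KDtr. The nuc pair was highest. The CTut peak was 25488 bases long and the KDut peak 5372, so their folds do not compare the same bases, whereas the CTtr and KDtr peaks were 5607 and 5061 bases long. Chromosome 4 had 18 of the 20 regions that all 9 lists covered.

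The 2 others were on chromosome 20. The longer, chr20:28838993-28840081, lies beyond the array in alpha satellite without a box, the source of the printed unit. Its fold was 13.6 in G4 DNA-IPdenat, 12.7 in CTnuc, 12.0 in KDnuc and 12.1 in KDtr, with 10.7 in CTut, 10.5 in KDut, 8.10 in CTtr, 6.59 in G4-ChIP and 6.17 in G4 DNA-IPnat. Chromosome 20 had 271 of its 787 peaks outside its array, of which 132 were on alpha periodicity, and this alpha satellite gave 13 to 22 peaks in each list other than G4 DNA-IPnat and G4-ChIP, which had 1 each.

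The other chromosomes had no region in all 9 lists. On chromosome 2 the longest region in 8 lists, chr2:92618045-92618677, had folds between 4.15 (CTtr) and 6.26 (CTut). On chromosome 9 the region chr9:43620699-43621231 ran from 4.45 (G4-ChIP) to 8.23 (CTut), and on chromosome 18 chr18:20920922-20922000, just beyond the array, ran from 3.79 (CTtr) to 5.27 (G4 DNA-IPdenat). G4 DNA-IPnat, the shortest list, was the one without a peak in these 3 regions.

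On chromosome 8 a pair of regions tied, each in 7 lists. The shorter, chr8:45131609-45132294 in the array, was absent from G4 DNA-IPnat and G4-ChIP and had folds from 4.67 (CTtr) to 7.23 (KDut), with 5.34 in CTnuc and 4.94 in KDnuc. The longer lay on the short-arm side, outside the array, at chr8:43237907-43240668 and was absent from CTnuc and KDnuc. It held no box, was 21.7% GC with 3 triplets, and repeated best at 42 bases, with 68.1% of positions matching. Its fold was 18.7 in G4-ChIP, the highest window peak of that list, 10.4 in CTut, 10.1 in KDtr, 9.49 in G4 DNA-IPdenat, 9.47 in KDut, 8.17 in CTtr and 7.58 in G4 DNA-IPnat. All of its 100-base words occurred once in the windows.

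AT-rich DNA of the same repeat length gave the opposite on chromosome 4. The peak with the highest fold of any window peak, chr4:49708076-49711322 at the start of the array, was 27.8% GC, repeated best at 42 bases, and had a fold of 26.2 in KDnuc and 21.0 in CTnuc. None of the 7 MinION lists had a peak there. These are the 2 AT-rich 42-base repeats that the rule for named regions gave, 1 listed in the Ion Torrent lists alone and 1 in the MinION lists alone.

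Several of the strongest array peaks split the same way. The peak at chr4:51711732-51712832, source of the chromosome 4 box unit, had folds of 20.8 in KDut, 16.2 in KDtr, 14.7 in CTtr, 13.5 in G4 DNA-IPdenat, 11.4 in G4-ChIP, 10.1 in CTut and 7.52 in G4 DNA-IPnat, and no peak in the nuc pair. The strongest peak of G4 DNA-IPnat, chr4:50329462-50330452 with a fold of 10.6, was likewise in the 7 MinION lists only. In contrast chr4:50555582-50556735 had a fold of 24.6 in CTnuc and 25.3 in KDnuc against 4.69 to 6.76 in 5 other lists. Over the windows, 170 regions (117951 bases) were in both nuc lists and in none of the other 7, and 63 regions (71574 bases) were in at least 6 of the other 7 and in neither nuc list. Both nuc lists and at least 6 others shared 37 regions. Of the bases in both nuc lists, 30.1% were in no other list, against 28.3% over the genome, and of those in at least 6 of the other 7, 54.5% were in neither nuc list, against 44.3% over the genome. Sequencer, input and sample differ together between these groups of lists, and so does mean read length where the paper gives it. Inside the windows CTnuc and KDnuc also leave out 69.9% and 63.9% of the numbers in their peak names, and the other 7 lists leave out none. Absence from the nuc pair is thus absence from the listed peaks only, and the part of the unlisted numbers in this split was not tested.

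The strongest peak of G4 DNA-IPdenat, chr4:50491684-50492929, was in all 9 lists. Its fold was 21.2 in KDnuc, 17.3 in CTnuc, 16.4 in G4 DNA-IPdenat, 15.2 in KDut, 14.9 in KDtr, 9.79 in CTtr, 7.82 in CTut, 6.83 in G4 DNA-IPnat and 6.78 in G4-ChIP. KD exceeded CT in each of the 3 pairs here, with peaks of 1328 bases in CTnuc and 676 in KDnuc, 3925 in CTut and 1576 in KDut, and 1410 in CTtr and 1412 in KDtr. At the strongest peak of CTut, chr4:50133702-50137302, the fold was 14.1 in CTut against 12.3 in KDut, 9.29 in CTtr against 11.1 in KDtr and 6.68 in CTnuc against 7.25 in KDnuc, so the direction differed between pairs.

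The first comparison of the design was KD against CT, which asks whether centromere peaks changed when CGGBP1 was depleted. In the pair nuc the windows held 461 peaks in CT and 899 in KD, 1.95 times as many. In the pair ut they held 626 and 315, and in the pair tr 308 and 243, which is 0.503 and 0.789 times as many. The mean log2 ratio was −0.12 ± 1.00 (SD, n = 3 pairs), with 1 pair up and 2 down (p = 0.75, exact two-sided sign-flip test, whose smallest possible p with 3 pairs is 0.25). The bases covered behaved alike, at 1.90 times in nuc, 0.425 times in ut and 0.839 times in tr (mean log2 ratio −0.19 ± 1.08, p = 0.75 by the same exact test).

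The direction held on every chromosome within a pair. KD had more peaks than CT on all 6 chromosomes in nuc, from 1.29 times on chromosome 4 (254 and 327) to 3.90 times on chromosome 8 (20 and 78). It had fewer on all 6 in ut, from 0.683 times on chromosome 4 (139 and 95) to 0.271 times on chromosome 8 (70 and 19), and on all 6 in tr, from 0.918 times on chromosome 4 (110 and 101) to 0.333 times on chromosome 8 (15 and 5). Chromosome 4 moved least and chromosome 8 most in all 3 pairs. The 6 chromosomes of a pair share 1 library each of CT and KD and are not replicates.

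**Figure D3:**
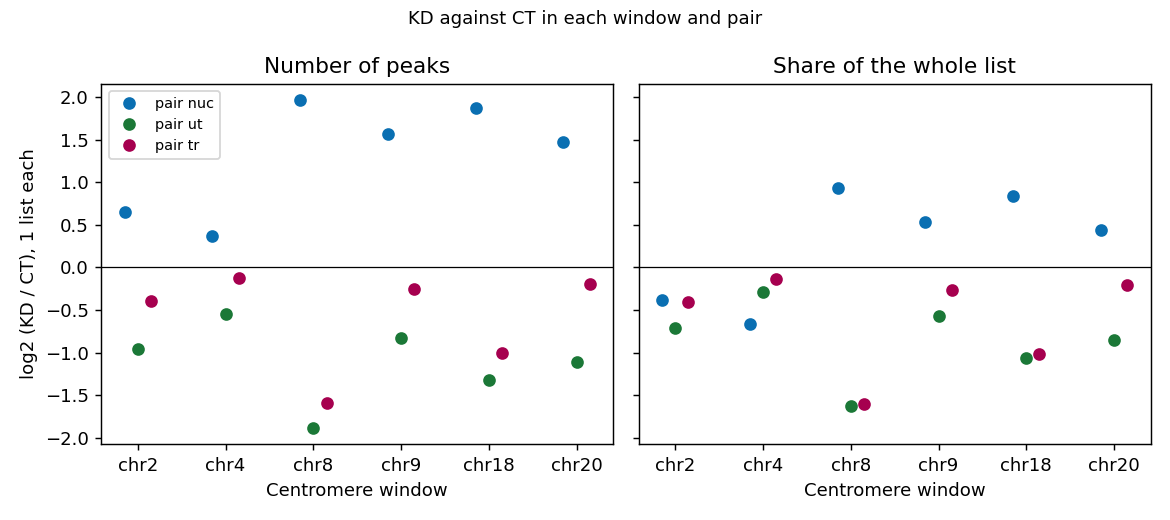
log2 of KD over CT for the number of peaks (left) and for the share of the whole list (right) in each window, 1 point per pair, each from 1 list of CT and 1 of KD, so that no error bar can be drawn. All 6 points of nuc lie above 0 and all 12 points of ut and tr below 0 on the left, and on the right 4 points of nuc lie above 0 and 2 below.

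The whole lists moved too, which bears on these counts. KD had 2.04 times the peaks of CT genome-wide in nuc, 0.837 times in ut and 1.01 times in tr. As a share of the list, the window peaks were lower in KD in all 3 pairs, at 12.1% in CT and 11.6% in KD in nuc, 17.9% and 10.8% in ut, and 13.0% and 10.2% in tr (mean log2 ratio −0.39 ± 0.33, SD, n = 3, p = 0.25, the smallest p that the exact sign-flip test can give here). For nuc this rested on chromosome 4 and on weak peaks. Among peaks with a −log10 q of at least 4 the share was 14.7% in CTnuc and 16.2% in KDnuc. Without chromosome 4 it was 5.45% in CTnuc and 7.38% in KDnuc, with 13.9% and 7.52% in ut and 8.37% and 5.94% in tr. In ut and tr the share was lower in KD on each of the 6 chromosomes.

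The lists of the nuc pair leave out most of their peak numbers, and this also moves with their counts. The peak numbers in the names run to 10757 in CTnuc and 22266 in KDnuc, so 64.7% and 65.2% of the numbers are not listed. Between the first and last listed peak of each window 1531 numbers were passed in CTnuc and 2490 in KDnuc, 1.63 times as many. No number was skipped in the other 7 lists. How the listed peaks were selected is not given in the sources used here, and its part in the result was not tested.

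Median fold in the windows was 5.56 in CTnuc and 4.99 in KDnuc, 4.84 in CTut and 4.81 in KDut, and 4.52 in CTtr and 5.08 in KDtr. The mean difference was −0.01 ± 0.56 (SD, n = 3, p = 0.75, exact sign-flip test). The median of the whole list moved in the same direction in each pair, by −0.53, −0.29 and 0.45.

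By class of sequence, the array peaks followed the totals, with 353 and 752 in CT and KD of nuc, 535 and 261 in ut, and 252 and 184 in tr. Outside the arrays the counts were smaller and did not all follow. Alpha periodicity outside the arrays gave 28 and 28 peaks in nuc, 30 and 19 in ut and 19 and 20 in tr. In the same order the pentamer class gave 11 and 15, 11 and 5, and 6 and 6. Other sequence gave 69 and 104, 50 and 30, and 31 and 33.

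Overlap between CT and KD lists was then counted, with 1 shared base as the minimum, as a share of each list and beside the same share over the whole list. In nuc, 70.9% of the CTnuc window peaks overlapped a KDnuc peak (whole list 72.0%), and 35.5% of the KDnuc peaks overlapped a CTnuc peak (whole list 33.7%), so the windows were near the background. In ut, 309 of the 315 KDut window peaks (98.1%, 95% exact Clopper-Pearson interval 95.9 to 99.3) overlapped a CTut peak, above the 62.6% of the whole list, whereas 46.6% of the CTut peaks overlapped a KDut peak, below the whole list's 54.9%. In tr, 87.2% of the KDtr peaks overlapped CTtr (whole list 73.1%) and 67.9% of the CTtr peaks overlapped KDtr (whole list 68.9%). The KDut and KDtr window peaks thus mostly overlapped CT peaks, which were more numerous than KD peaks in the windows of both pairs.

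Overlap between methods was higher in the windows than over the whole list in all 4 comparisons made. In 3 of them the share of the whole list lay below the exact interval of the windows. Of the 64 G4-ChIP peaks, 57.8% overlapped G4 DNA-IPnat against 10.8% over the whole list, and 92.2% overlapped G4 DNA-IPdenat against 21.6%. Of the CTnuc peaks 48.6% overlapped G4 DNA-IPdenat against 29.1%. In the native DNA list, 42 of 43 window peaks (97.7%) shared bases with a peak of the denatured DNA (95% exact Clopper-Pearson interval 87.7 to 99.9), against 92.0% over the whole list. That interval, which covers counting error only, includes the share of the whole list. In each comparison the whole list contains the window peaks. The peaks of the denatured DNA were 5.63 times as dense in the windows as over the genome, and the part of this density in the overlaps was not tested.

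The covered bases were also counted by the number of lists that held them. The 9 lists together covered 3159800 bases, 12.7% of the windows, and 55.4% of these were in 1 list only, 18.4% in 2 and 0.582% in all 9. There were 177 regions in at least 6 lists and 92 in all 6 AbC lists. The share in all 9 is capped by G4 DNA-IPnat, which covered 124443 bases of the windows. No genome-wide value stands beside these shares and region counts, so they do not set the windows apart. Regions in all 3 CT lists and in no KD list numbered 10 with 2110 bases in all, and regions in all 3 KD lists and in no CT list numbered 4 with 486 bases. These were 1.16% of the window bases in all 3 CT lists, against 1.87% over the genome, and 0.271% of those in all 3 KD lists, against 3.59% over the genome.

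The 3 longest CT regions were on alpha satellite. The region chr20:28813836-28814400, without a box, had folds of 4.45 in CTnuc, 4.41 in CTut and 3.39 in CTtr, chr4:49766644-49767080 had 7.33, 4.54 and 3.75, and chr2:92290457-92290854 had 4.93, 4.13 and 3.75. The 3 longest KD regions were all on the pentamer satellite of chromosome 4, with 49.2% to 63.4% of their bases in the pentamer. At chr4:49122712-49122991 the fold was 4.69 in KDnuc, 9.94 in KDut and 9.44 in KDtr, at chr4:49093483-49093624 it was 6.34, 11.7 and 13.0, and at chr4:49117923-49117983 it was 12.4, 10.5 and 11.0. These folds are those of longer peaks, 36087 bases in KDut and 37088 in KDtr at the first region, and 45393 bases in CTut at the CT region of chromosome 20. The 6 regions are 61 to 565 bases long, and each CT list has 5 to 11 pentamer peaks elsewhere on chromosome 4.

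Few of the peaks lay in annotated genes. Of the 3717 peaks, 3630 (97.7%) were intergenic, 38 touched an intron only and 49 touched an exon of GENCODE 44, all of the latter in AbC lists. No exon was touched in G4 DNA-IPdenat, G4 DNA-IPnat or G4-ChIP. Over the whole lists 1.49% of the G4 DNA-IPdenat peaks touched an exon, against 6.64% to 12.8% in the other 8, so few exons were under the peaks of the denatured DNA genome-wide as well. Of the 26 protein-coding genes of the windows, 7 held a peak and 3 held peaks of 2 lists. No genome-wide share stands beside this gene count or beside the intergenic and intron counts, so they only describe the windows. ROCK1, a kinase of the actin cytoskeleton (chr18:20944612-21111813), had 4 peaks and GREB1L (chr18:21242232-21526112) had 2, in G4 DNA-IPdenat and KDnuc, and ANKRD36C (chr2:95836919-95991831) had 3, in G4 DNA-IPdenat and CTut, with folds of at most 5.83. The exons hit in the most lists belonged to a lncRNA gene of chromosome 20, ENSG00000291100, and to the pseudogenes ANKRD20A17P, DUX4L37 and ENSG00000250753, each in 5 lists.

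The family was last set against the 9 centromeres of family 1 on chromosomes 1, 3, 5, 6, 7, 10, 12, 16 and 19, whose arrays are also built of alternating units with a box. Bases covered per Mb were higher in family 2 in 6 of the 9 lists, with ratios from 0.538 (CTnuc) to 2.37 (G4 DNA-IPnat) and a mean log2 ratio of 0.15 ± 0.64 (SD, n = 9 lists, p = 0.51, exact two-sided sign-flip test, smallest possible p 0.0039). The lists share cells and reference and are not fully independent. CTnuc and KDnuc were at 0.538 and 0.655, G4 DNA-IPdenat at 0.840, and the 4 MinION AbC lists between 1.20 and 1.29.

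This comparison turned on chromosome 4, whose window includes the block of pentamer and other sequence before its array. That block held 79491 of the 105893 covered bases of chromosome 4 in G4 DNA-IPnat, 161187 of 295150 in KDut and 74293 of 564311 in G4 DNA-IPdenat. The ratios are therefore those of whole windows and not of alpha satellite alone. In 1-kb bins with alpha periodicity, which the pentamer satellite can also enter, family 2 was higher in 7 of 9 lists. The mean log2 ratio there was 0.25 (p = 0.38, exact sign-flip test). Without chromosome 4 family 2 was lower than family 1 in all 9 lists, with a mean log2 ratio of −0.89. Chromosome 4 was the most covered window of family 2 in each list, so leaving it out lowers every ratio by construction. When chromosome 1, the family 1 chromosome with the most peaks (1335 against 1328 on chromosome 4), was left out as well, family 2 was lower in 8 of 9 lists. The mean log2 ratio was then −0.71. Both omissions removed a chromosome chosen by its number of peaks in these lists, so no test is drawn from them. Peaks covered a median of 8.81% of the chromosome 4 window over the 9 lists, 2.51% of chromosome 20, 1.61% of chromosome 9, 1.29% of chromosome 2, 0.67% of chromosome 18 and 0.47% of chromosome 8. In family 1 the median ran from 0.30% on chromosome 16 to 4.89% on chromosome 10. Box density was 1.63 per kb in the family 2 windows and 1.39 in those of family 1.

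**Figure D4:**
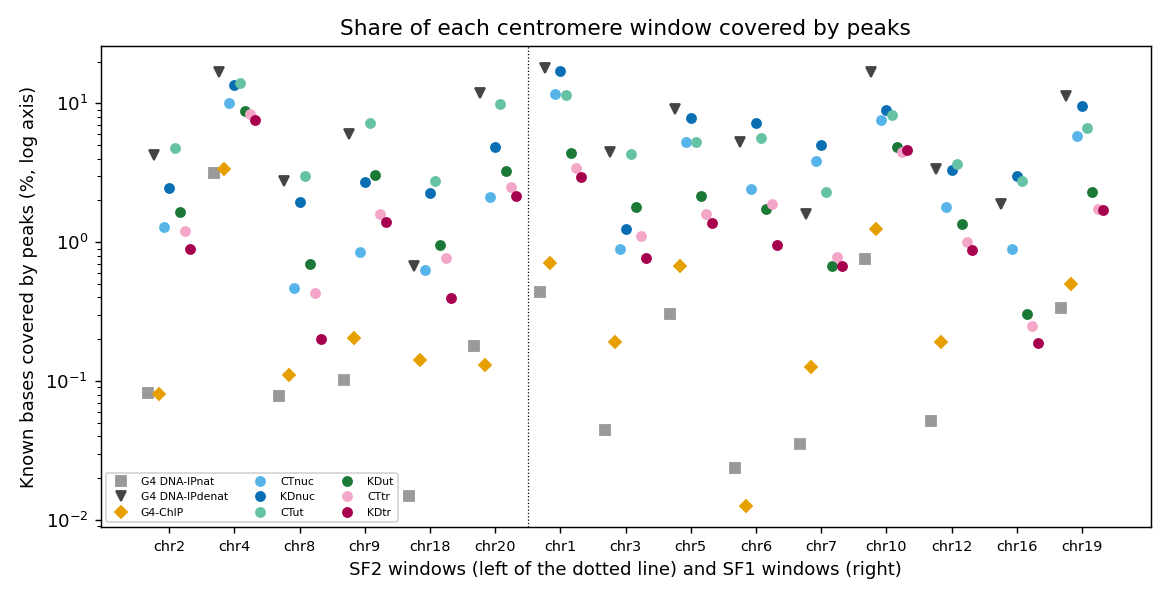
Share of known bases covered by peaks (log axis) in each window of families 2 and 1, 1 point per list, with values of 0 not drawn. Chromosome 4 has the highest median of the 15 windows at 8.81%, and the other 5 windows of family 2, with medians of 0.47% to 2.51%, lie among those of family 1.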

How the data were processed

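Broad peak lists of 9 anti-quadruplex immunoprecipitations in HEK293T were analysed, with groups taken from the sample labels. The authors aligned reads with minimap2 to hg38 without chromosome Y, mitochondrial and unplaced sequence, kept uniquely aligned reads and called broad peaks against input with MACS2. A bandwidth of 3000, no local lambda and a broad cutoff of 0.01 were used for the AbC lists and the denatured DNA, and a bandwidth of 300 for the native DNA and conventional ChIP. The aligner of the Ion Torrent reads is named differently in different places of the study. The deposited columns used were the fold enrichment and the −log10 q-value. The deposited −log10 p-value and the score were not used for any result. Upstream versions are not given in the sources used here.

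Peaks were assigned to windows by midpoint, and covered bases are unions of peaks. Sequences and gene models were hg38 and GENCODE 44. Alpha periodicity meant that over 50% of bases matched those 169 to 173 bases on, the pentamer class that over 10% of bases lay in ATTCC or its complement, and the canonical signature 4 runs of at least 3 G or C with loops of 1 to 7. The periodicity measure does not separate alpha satellite from the pentamer satellite. On chromosome 4 the median match was 61.0% in pentamer peaks and 49.5% in array peaks. Shares of periodic peaks and the periodic bins are read with that limit. KD was compared with CT over 3 pairs, and family 2 with family 1 over 9 lists, by exact two-sided sign-flip tests. Named regions were, by rule, the region in the most lists on each chromosome, the peak of highest fold in each list, the 3 longest regions in all lists of CT or of KD and in none of the other, and protein-coding genes with peaks of at least 2 lists. The members, rules and lists were chosen with earlier results of these data known, and the limits of arrays and classes, the word counts and the nuc against MinION regions after the values were seen. Functions were checked on simulated data. Alternatives were a −log10 q of at least 4, any shared base, periodic bins, leaving out a chromosome, a pair or a list, label permutation, overlaps of 50% and 70%, 1 box mismatch, a 60% match and loops to 12. No read depth is in the lists, so the precision of single peaks is unknown, and intervals cover counting error only. Python 3.11.15, pysam and scipy were used.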

Additional observations from a re-analysis of the deposited data

Results flagged for a closer look

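KD and CT differed in opposite directions in the 3 pairs. The log2 ratio of window peaks was 0.96 in nuc, −0.99 in ut and −0.34 in tr. The log2 ratio of bases covered was 0.93 in nuc, −1.23 in ut and −0.25 in tr. The difference in median fold, KD minus CT, was −0.57 in nuc, −0.029 in ut and 0.56 in tr. Each pair is 1 list of CT and 1 of KD, and the difference between pairs was not tested.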

How the results depend on the processing

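The direction of KD against CT in peaks and in bases covered turned on 1 pair. With 1 pair left out at a time, the mean log2 ratio ran from −0.67 (without nuc) to 0.31 (without ut) for peaks and from −0.74 (without nuc) to 0.34 (without ut) for bases covered. It ran from −0.54 to −0.21 for the share of the list. The share was no longer lower in KD in all 3 pairs among peaks with a −log10 q of at least 4 (mean −0.19, nuc 0.14), in periodic bins (mean −0.32, nuc 0.23) or without chromosome 4 (mean −0.32, nuc 0.44), each with p = 0.50 in the exact sign-flip test. The mean difference in median fold ran from −0.30 (without tr) to 0.27 (without nuc), and was 0.081 among peaks with a −log10 q of at least 4. No such test can pass 0.05 with 3 pairs. Against family 1 the mean log2 ratio ran from 0.01 to 0.27 with 1 list left out, but was −0.89 without chromosome 4 and −0.71 without chromosomes 4 and 1, the last being chosen after seeing the data. Overlaps moved with the minimum. At 50% of the peak's length they were 65.5% for CTnuc in KDnuc, 30.3% for KDnuc in CTnuc, 37.1% for CTut in KDut, 81.25% for G4-ChIP in G4 DNA-IPdenat and 39.0% for CTnuc in G4 DNA-IPdenat. At 70% they were 60.1%, 24.2%, 26.0%, 81.25% and 33.2% in the same order, with 95.9% for KDut in CTut, 56.5% for CTtr in KDtr, 79.8% for KDtr in CTtr and 42.2% for G4-ChIP in G4 DNA-IPnat. Among peaks with a −log10 q of at least 4 they were 45.6% for KDnuc in CTnuc, 73.4% for CTtr in KDtr, 77.7% for KDtr in CTtr, 39.9% for CTnuc in G4 DNA-IPdenat and 100% for G4 DNA-IPnat in G4 DNA-IPdenat. With 1 mismatch 85.4% of the peaks held a box (82.2% without), alpha periodicity over 60% of bases was met by 22.5% (65.6% over 50%), and loops to 12 gave a signature in 3.36% (2.64% with loops to 7). The other 51 recomputed values include those of the share of the list. The means among them kept their direction and, where a test was run, their side of the 0.05 threshold. The overlaps among them stayed within the exact interval of the main value. The cause of these moves was not tested, beyond the stricter minimum itself.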
